A study of Mus musculus with 3 samples.

Results

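Liver sinusoidal endothelial cells line the capillaries of the liver lobule. Their marker genes were taken here as 10 named genes, *Stab1*, *Stab2*, *Lyve1*, *Mrc1*, *Fcgr2b*, *Clec4g*, *Kdr*, *Pecam1*, *Oit3* and *Dnase1l3*, and all 10 were found by symbol among the 49492 entries of the deposited count tables. Total RNA was sequenced from the liver of CD-1 mice, which are outbred. The control group was given phosphate-buffered saline (PBS). The other groups were dosed orally each day with sonicated zinc oxide nanoparticles (ZnO NPs) at 25 mg/kg, 1 group over 8 weeks and 1 over 12 weeks. With 1 library in each group, nothing below is checked by replicates and there are no p-values. The sex and age of the mice, the number of animals behind a library and the time at which the control was taken are not given in the sources used here. The title of the series names insulin resistance, and no label ties these 10 genes to it.

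Sinusoidal endothelium differs from the lining of other capillaries. Its cells are perforated by fenestrae, rest on little basement membrane and take up waste macromolecules from portal blood through scavenger and lectin receptors. Loss of these features, with gain of genes typical of continuous capillaries, is known as capillarization. Several of the 10 genes are not private to these cells: macrophages can also make *Mrc1*, *Stab1*, *Fcgr2b* and *Lyve1*, and *Kdr* and *Pecam1* mark endothelium of any vessel. In RNA from whole liver, more cells of a type and more RNA per cell cannot be told apart.

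Rounded counts summed to between 13263211 and 14258770 per library. Levels are given as CPM, the counts scaled to library size after adjustment by the trimmed mean of M-values (TMM), and levels of different genes are compared as TPM, the analogous unit that also divides by exon length. A gene was kept for comparison at 1 CPM or more in at least 1 library, which left 14585 genes, all 10 marker genes included. A difference between libraries is the log2 ratio of CPM + 1. Genes past 2-fold are termed called, which sets a size and tests nothing. The intervals beside log2 ratios are exact, at 95%, for the ratio of counts; they cover counting error only and not the spread between mice. Hepatocyte transcripts were abundant, as befits the tissue label, with albumin (*Alb*) at 21847 CPM in the control library, 31793 CPM after 8 weeks and 31169 CPM after 12. The 8-week library also held skeletal muscle transcripts: 10 muscle genes summed to 26 control counts, 2704 counts after 8 weeks and 16 after 12 weeks, with 6, 0 and 5 of them at 0.

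After 8 weeks all 10 sinusoidal marker genes had higher values than in the control, against 48.4% of all kept genes. Their median log2 ratio was 0.41, against -0.02 over all kept genes. The 2-fold call was reached by 1 gene, the hyaluronan receptor gene *Lyve1*, where 4.15% of all genes were called higher and 6.25% in either direction. After 12 weeks 8 of the 10 were above the control, against 48.9% of all kept genes, and 2 below, with a median of 0.18 against -0.01 over all genes, and *Lyve1* was again the 1 gene called, where 3.11% of all genes were called higher and 4.46% in either direction. Together the 10 genes had 4581 control counts, 6469 after 8 weeks and 4899 after 12 weeks. That is 0.0337% of the control library (exact binomial interval 0.0327% to 0.0346%), 0.0454% at 8 weeks (0.0443% to 0.0465%) and 0.0369% at 12 weeks (0.0359% to 0.0380%). The summed level was 1.34-fold the control at 8 weeks and 1.10-fold at 12 weeks.

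Per exon length the 10 genes ranged from 3.55 to 24.1 TPM in the control, from 5.04 to 32.7 TPM at 8 weeks and from 5.43 to 28.3 TPM at 12 weeks. The median kept gene stood at 7.51 TPM in the control. *Fcgr2b* (24.1 TPM), *Clec4g* (22.7 TPM) and *Dnase1l3* (21.0 TPM) led the control, and their counting intervals overlapped from one to the next. *Mrc1* followed at 14.7 TPM, clear of the genes on both sides. *Stab2* (10.9 TPM) and *Kdr* (9.89 TPM) overlapped, as did *Stab1* (6.55 TPM) with *Oit3* (5.81 TPM), *Oit3* with *Lyve1* (4.20 TPM) and *Lyve1* with *Pecam1* (3.55 TPM). *Pecam1* was lowest in all 3 libraries. *Lyve1* moved furthest in this order, from rank 9 of the 10 in the control to rank 7 at 8 weeks and rank 6 at 12 weeks, where its 10.4 TPM lay among *Stab2* (11.2 TPM) and *Kdr* (9.39 TPM).

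**Figure D1:**
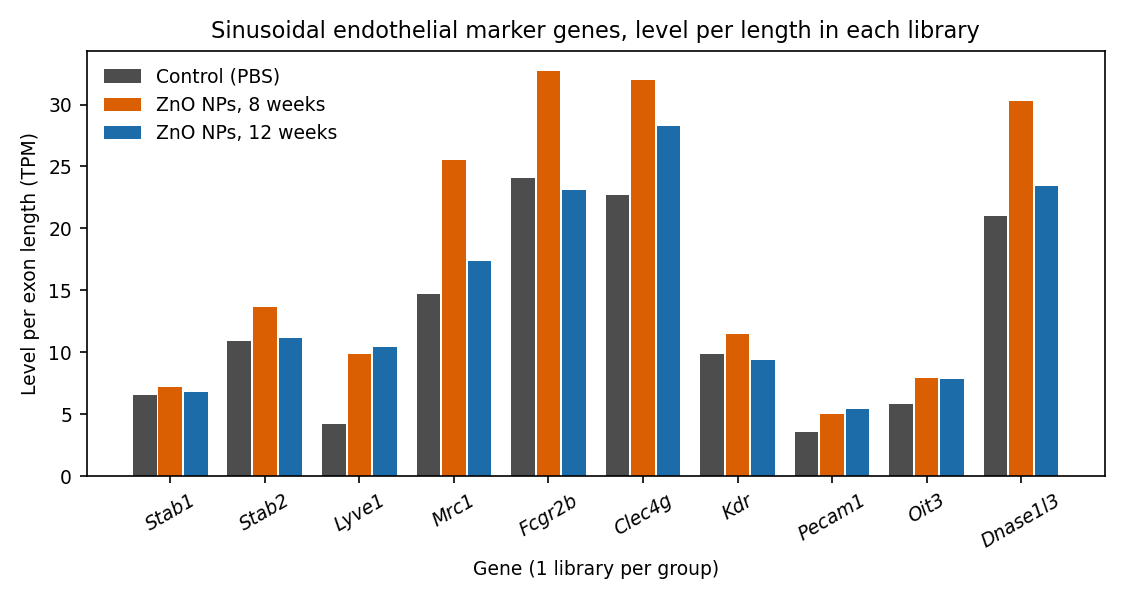
Level per exon length (TPM, vertical axis) of the 10 sinusoidal endothelial marker genes in the control (grey), 8-week (orange) and 12-week (blue) liver library, 1 library per group and no error bars. *Fcgr2b*, *Clec4g* and *Dnase1l3* are the 3 highest genes in each library, and *Lyve1* goes from 4.20 TPM in the control to 9.90 and 10.4 TPM.

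The stabilins are large scavenger receptors that clear oxidized lipoproteins, hyaluronan and other waste molecules from blood. *Stab1* (chr14:31139013-31168641 in mm10, minus strand) had 32.8 CPM in the control, 34.9 CPM at 8 weeks and 33.8 CPM at 12 weeks. Its log2 ratio to the control was 0.09 at 8 weeks (interval -0.10 to 0.28) and 0.04 at 12 weeks (-0.15 to 0.24), so no difference was detectable beyond counting error at either time. *Stab2* (chr10:86841203-87007942, minus strand), its paralogue and the main endocytic hyaluronan receptor of the sinusoid, had 43.3, 52.3 and 43.8 CPM in the same order. The 8-week library stood above the control by 0.26 (0.11 to 0.43), and the 12-week library, at 0.01 (-0.15 to 0.18), did not differ from the control beyond counting error. The ratio of *Stab1* to *Stab2* counts was 0.757 in the control (0.668 to 0.857), 0.668 at 8 weeks (0.595 to 0.749) and 0.772 at 12 weeks (0.681 to 0.875), and all 3 intervals overlap.

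*Lyve1* (chr7:110850607-110863239, minus strand) encodes a hyaluronan receptor shared by lymphatic vessels, sinusoidal endothelium and some tissue macrophages. It had 81 control counts, 195 after 8 weeks and 194 after 12 weeks, or 5.97, 13.6 and 14.6 CPM. Both treated libraries were therefore high and close to each other, and the control was low. The level was 2.28-fold the control at 8 weeks (log2 ratio 1.07, interval 0.81 to 1.58) and 2.45-fold at 12 weeks (1.17, interval 0.91 to 1.69). Of the 14585 genes, 543 had a larger log2 ratio at 8 weeks and 306 at 12 weeks. With 5 CPM added in place of 1 CPM, which weighs on a gene of this level, *Lyve1* was under the 2-fold call at both times.

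*Mrc1* (chr2:14229392-14332057, plus strand) encodes the mannose receptor, a lectin that takes up glycoproteins and collagen fragments. Its values were 45.7 CPM in the control, 76.6 CPM at 8 weeks and 53.4 CPM at 12 weeks. The 8-week library was the high one, at 1.68-fold the control (log2 ratio 0.73, interval 0.60 to 0.89), while the 12-week library was 1.17-fold (0.22, interval 0.07 to 0.38). Among the 10 genes only *Lyve1* had a larger ratio at 8 weeks.

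*Fcgr2b* (chr1:170958617-170976547, minus strand) encodes the inhibitory Fc gamma receptor, which on sinusoidal endothelium removes small immune complexes. It had 67.9 CPM in the control, 89.2 CPM at 8 weeks and 64.6 CPM at 12 weeks. The 8-week library stood alone above the other two, by 0.39 over the control (0.27 to 0.52), and the 12-week library was at -0.07 (-0.21 to 0.07). Its deposited estimated counts, 920.7, 1277.8 and 855.67, carry fractions of a read. So do those of *Dnase1l3* in every library (714.5, 1053.5 and 771.17). Fractions also occur in *Stab2* (588.5, control), *Pecam1* (212.5, 8 weeks) and *Lyve1* (194.5, 12 weeks). Such values are less certain than whole counts. Related Fc receptor genes have similar sequence, and the predicted gene *Gm38204* on the opposite strand shares 155 exon bases with *Fcgr2b*. The source of the fractions was not tested. Of the activating receptor genes of the same family, *Fcgr3* had 2.27, 8.62 and 8.65 TPM against 24.1, 32.7 and 23.1 TPM for *Fcgr2b*. *Fcgr3* went from 26 counts in the control to 101 and 96, *Fcgr4* from 4 to 36 and 34, and *Fcgr1* from 2 to 28 and 20. The shared signalling chain *Fcer1g* went from 12 to 42 and 48. All 4 were called higher at both times, where 4.15% of all genes were at 8 weeks and 3.11% at 12 weeks.

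*Clec4g* (chr8:3707064-3720651, minus strand) encodes LSECtin, a C-type lectin of liver and lymph node sinusoidal endothelium that binds glycans and activated T cells. Its values were 27.2 CPM in the control, 37.1 CPM at 8 weeks and 33.6 CPM at 12 weeks, with both treated libraries above the control. The log2 ratio was 0.44 at 8 weeks (0.26 to 0.64) and 0.30 at 12 weeks (0.10 to 0.51). The predicted gene *Gm16553* on the opposite strand shares 146 exon bases with *Clec4g*, 5.93% of its exon length, and had 83, 134 and 109 counts in the same order. Whether counting used strand is not given in the sources used here, and reads in these shared bases may belong to either gene.

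*Kdr* (chr5:75932827-75978458, minus strand) encodes VEGF receptor 2, which carries the growth and survival signal of vascular endothelial growth factor. It had 43.5 CPM in the control, 48.9 CPM at 8 weeks and 40.9 CPM at 12 weeks. The log2 ratio to the control was 0.17 (0.01 to 0.33) and -0.09 (-0.26 to 0.08). *Pecam1* (chr11:106654217-106750628, minus strand) encodes CD31, an adhesion molecule of endothelial junctions that leukocytes and platelets also carry. It had 10.8, 14.8 and 16.3 CPM, with both treated libraries above the control at 0.43 (0.15 to 0.77) and 0.56 (0.29 to 0.91). The ratio of *Kdr* to *Pecam1* counts was 4.04 in the control (3.37 to 4.88), 3.31 at 8 weeks (2.83 to 3.87) and 2.51 at 12 weeks (2.14 to 2.95), and the control and 12-week intervals do not overlap.

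The remaining pair of genes encode secreted proteins. *Oit3* (chr10:59422958-59441778, minus strand), which encodes a zona pellucida domain protein, had 107 control counts, 150 after 8 weeks and 140 after 12 weeks, or 7.89, 10.5 and 10.6 CPM. Its log2 ratios were 0.37 (0.04 to 0.78) and 0.38 (0.05 to 0.80), and both treated libraries were close to each other. *Dnase1l3* (chr14:7964533-7994573, minus strand) encodes a nuclease that digests DNA in blood, including chromatin in apoptotic particles. It had 52.6, 73.6 and 58.2 CPM, with a log2 ratio of 0.48 at 8 weeks (0.34 to 0.62) and 0.14 at 12 weeks (-0.003 to 0.29). None of the other 4 secreted or lysosomal DNases that passed the filter had a value at 8 weeks above 0.17: *Dnase2b*, which with *Dnase1l3* had the most counts summed over the 3 libraries, had -0.06 and -0.20, and *Dnase2a*, named after its values were seen, had -0.69 and -0.59.

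**Figure D2:**
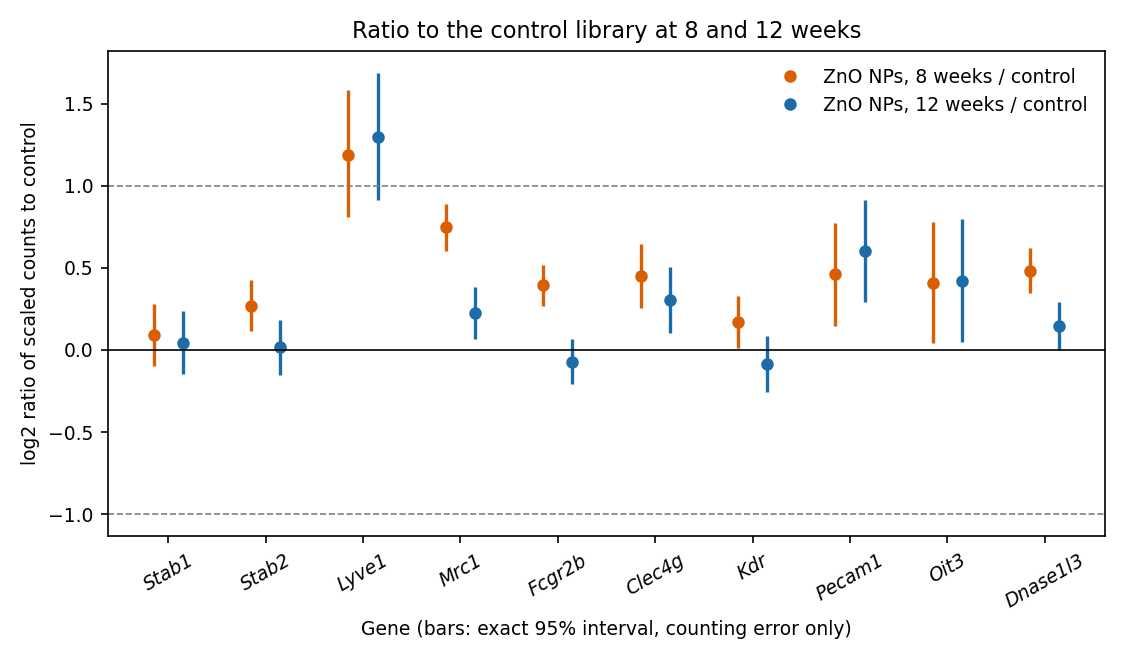
Log2 ratio of TMM-scaled counts to the control (vertical axis, no CPM added) for each of the 10 genes at 8 weeks (orange) and 12 weeks (blue), 1 library per group. Bars are exact 95% intervals for counting error only and dashed lines mark 2-fold; *Lyve1* lies highest at both times, and 9 of the 10 intervals at 8 weeks and 5 at 12 weeks lie above 0.

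By counting error alone, 9 of the 10 genes had an interval above 0 at 8 weeks, *Stab1* being the exception, where 23.6% of all kept genes had one. At 12 weeks 5 of the 10 had an interval above 0 (*Lyve1*, *Clec4g*, *Pecam1*, *Mrc1* and *Oit3*), where 21.0% of all kept genes did, and 0 had one below. The 2 comparisons share the control library, so a low or high control value moves both.

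The treated libraries were also compared with each other, without the control. At 12 weeks *Mrc1* was below its 8-week value by a log2 ratio of -0.51 (-0.66 to -0.38), *Fcgr2b* by -0.46 (-0.59 to -0.34), *Dnase1l3* by -0.33 (-0.47 to -0.20), *Kdr* by -0.25 (-0.42 to -0.09) and *Stab2* by -0.25 (-0.41 to -0.10). These 5 had intervals below 0, as did 19.2% of all kept genes. The values of *Pecam1* (0.13), *Lyve1* (0.10), *Oit3* (0.01), *Stab1* (-0.04) and *Clec4g* (-0.14) had intervals that span 0. No gene of the 10 was called at 2-fold, where 2.51% of all genes were called in either direction, and the median of the 10 was -0.20 against 0.00 over all genes.

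The share that each gene held of the summed counts of the 10 does not depend on how libraries are scaled. *Lyve1* held 1.77% in the control (exact binomial interval 1.41% to 2.19%), 3.01% at 8 weeks (2.61% to 3.46%) and 3.96% at 12 weeks (3.43% to 4.54%). Both treated intervals lie above that of the control. *Pecam1* held 3.19% (2.70% to 3.74%), 3.28% (2.86% to 3.74%) and 4.41% (3.85% to 5.02%), so the 12-week library was the high one. *Mrc1* held 13.5% (12.6% to 14.6%), 17.0% (16.1% to 17.9%) and 14.4% (13.5% to 15.4%), with the 8-week library high. *Fcgr2b* held 20.1% (19.0% to 21.3%), 19.8% (18.8% to 20.7%) and 17.5% (16.4% to 18.6%), with the 12-week library low. *Stab1* was at its lowest share at 8 weeks, 7.73%, against 9.71% in the control and 9.14% at 12 weeks. Of the other genes below their 8-week level at 12 weeks, *Kdr* held 10.8% and 11.1% at these times, *Stab2* 11.6% and 11.8% and *Dnase1l3* 16.3% and 15.7%, each with overlapping intervals.

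**Figure D3:**
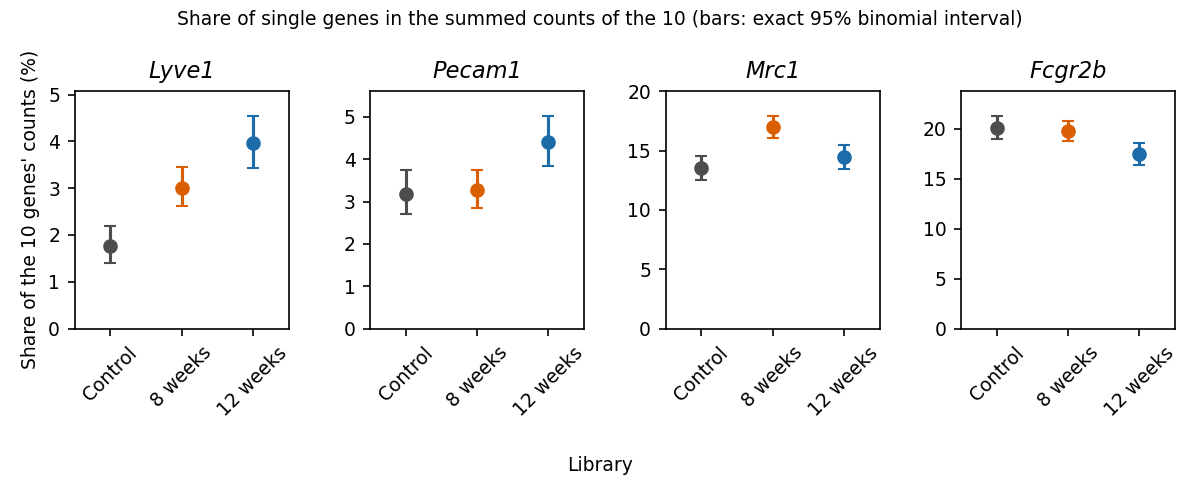
Share of *Lyve1*, *Pecam1*, *Mrc1* and *Fcgr2b* in the summed counts of the 10 genes (vertical axis, %) in the control, 8-week and 12-week library, with exact 95% binomial intervals for counting error. The *Lyve1* share is 1.77%, 3.01% and 3.96%, while that of *Mrc1* is highest at 8 weeks (17.0%).

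Promoter sequences were available from RefSeq (GRCm38.p6, the build of mm10) for 6 of the 10 genes: *Stab1*, *Stab2*, *Mrc1*, *Fcgr2b*, *Clec4g* and *Kdr*. The 250 bases before the start site are shown for the stabilin pair, whose proteins are related, and for *Mrc1*, which had the largest 8-week ratio of the 6. Capitals mark the letters AGGAAG, a core bound by ETS factors, or CTTCCT where the match is on the other strand; *Stab1* lies at chr14:31168642-31168891 (minus strand), *Stab2* at chr10:87007943-87008192 (minus strand) and *Mrc1* at chr2:14229164-14229413 (plus strand).
Stab1: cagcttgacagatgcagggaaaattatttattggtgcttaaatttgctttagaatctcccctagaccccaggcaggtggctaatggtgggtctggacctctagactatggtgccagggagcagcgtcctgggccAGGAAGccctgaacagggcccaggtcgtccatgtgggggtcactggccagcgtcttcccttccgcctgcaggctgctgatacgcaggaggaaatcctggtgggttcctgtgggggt
Stab2: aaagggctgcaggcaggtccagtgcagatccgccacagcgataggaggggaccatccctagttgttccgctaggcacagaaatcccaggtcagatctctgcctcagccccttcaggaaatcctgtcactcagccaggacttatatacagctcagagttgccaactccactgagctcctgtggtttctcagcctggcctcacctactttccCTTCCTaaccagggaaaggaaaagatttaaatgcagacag
Mrc1: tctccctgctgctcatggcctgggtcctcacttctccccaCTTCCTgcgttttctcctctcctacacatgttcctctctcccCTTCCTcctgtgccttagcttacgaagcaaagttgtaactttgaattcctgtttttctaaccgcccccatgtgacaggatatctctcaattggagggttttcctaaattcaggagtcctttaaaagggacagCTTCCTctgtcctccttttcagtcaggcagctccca
AGGAAG was found on either strand in 4 of the 6 promoters (*Stab1*, *Stab2*, *Mrc1* and *Clec4g*), against 29.5% of 32817 promoters of the same length. *Mrc1* holds it 3 times, with the nearest match 31 to 36 bases before the RefSeq start, and *Stab2* once, at 35 to 40 bases. The *Mrc1* window ends at 14229413, whereas the count tables place the gene from 14229392. Its last bases therefore lie inside the gene as counted. The windows of *Fcgr2b* and *Kdr* also reach into the spans given above for these genes. ATTGT, a core of SOX factors, was found in *Fcgr2b* and *Clec4g* (27.7% of all promoters), and TATAAA in *Clec4g* alone (12.4%). AGATAA, read by Gata4 and its relatives (9.99% of all promoters), TGCTGAC, read by Maf (3.81%), and the metal response element cores TGCACNC (10.4%) and TGCGCNC (12.5%) were in none of the 6 windows. Only these exact letters were searched, and other forms of the same sites were not. ETS and SOX letters overlap no other motif searched in the 3 sequences shown. These matches describe the letters of the windows and say nothing of binding.

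Other genes of sinusoidal endothelium were taken from a list of 25, of which 21 passed the filter. At 8 weeks 3 of the 21 were called higher and 0 lower (median 0.27), where 4.15% of all genes were called higher. At 12 weeks 1 was called higher and 0 lower (median 0.30), where 3.11% of all genes were called higher. *Cd36*, a fatty acid and scavenger receptor that hepatocytes and macrophages also make, went from 11.3 CPM in the control to 76.7 CPM at 8 weeks and 64.6 CPM at 12 weeks, with log2 ratios of 2.65 and 2.41. *F8*, coagulation factor VIII, which in liver is made by sinusoidal endothelium, had 16.4, 44.3 and 28.5 CPM, or 1.38 (1.21 to 1.66) and 0.76 (0.56 to 1.04). *Tfec*, a transcription factor gene also active in macrophages, had 10, 42 and 31 counts. *Gpr182*, an atypical chemokine receptor and close marker of these cells, was named after its values were seen and had 0.30 and 0.27, near the median of the list. The transcription factor *Gata4*, which sets sinusoidal identity, was chosen likewise and had -0.73 at 8 weeks and -0.08 at 12 weeks, the lowest of the list at 8 weeks. *Maf*, another transcription factor gene of the list and also chosen after its values were seen, had 0.54 and 0.30. Of the 21 genes, 15 were above and 6 below the control at each time.

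Genes of endothelium in any vessel had a median log2 ratio of 0.19 at 8 weeks and 0.25 at 12 weeks over 22 kept genes of 24. At both times 0 were called in either direction, where 6.25% of all genes were at 8 weeks and 4.46% at 12 weeks. Of the 22, 14 were above and 8 below the control at each time. Those with the most counts summed over the 3 libraries were *Ptprb*, the vascular endothelial phosphatase (82.8, 110 and 118 CPM; 0.40 and 0.51), and *S1pr1*, the sphingosine 1-phosphate receptor (50.6, 34.5 and 29.2 CPM; -0.54 and -0.77). VE-cadherin (*Cdh5*), the adhesion molecule of endothelial junctions, was named after its values were seen and had 16.3, 28.8 and 28.2 CPM, with log2 ratios of 0.78 (0.58 to 1.06) and 0.76 (0.55 to 1.04). Like *Lyve1* and *Pecam1* it was of similar level in both treated libraries.

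Genes typical of continuous capillaries and large vessels, relevant to capillarization, had a median of 0.20 at 8 weeks and 0.33 at 12 weeks over 15 kept of 18. *Ly6a*, a surface antigen of capillary endothelium and of blood stem cells, was the 1 gene called, at 8 weeks, with 8, 43 and 28 counts. Over all genes, 6.25% were called in either direction at 8 weeks and 4.46% at 12 weeks. *Cd34*, the surface marker whose gain in sinusoids is a usual sign of capillarization, was named after its values were seen. It had 11, 23 and 27 counts, or 0.81, 1.61 and 2.04 CPM, and was not called. Its log2 ratios were 0.52 (-0.11 to 2.17) and 0.75 (0.27 to 2.49), and the added 1 CPM weighs on a gene of this level. By counting error alone, 5 of the 15 had an interval above 0 at 8 weeks and 1 below. At 12 weeks 7 had one above 0 and 0 below. Over all kept genes, 23.6% and 21.0% had one above 0.

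In VEGF signalling 0 of 9 kept genes were called at either time, with medians of 0.17 and 0.06. This list holds *Kdr*, 1 of the 10 genes, whose own value is the 8-week median. Without *Kdr* the medians were 0.09 and 0.10. Among all genes, 6.25% were called in either direction at 8 weeks and 4.46% at 12 weeks. The ligand *Vegfa* had 187, 183 and 169 CPM (-0.03 and -0.15). The co-receptor *Nrp1* had 71.8, 71.2 and 129 CPM, with -0.01 at 8 weeks (-0.14 to 0.12) and 0.83 at 12 weeks (0.73 to 0.96), so the 12-week library alone was high. Angiocrine factors, the signals that endothelium sends to hepatocytes, and their receptors had medians of 0.02 and 0.14. Of their 14 kept genes, 0 were called at 8 weeks, where 6.25% of all genes were. At 12 weeks 2 were called higher, where 3.11% of all genes were. These were *Inhbb*, a subunit of activin, with 35, 22 and 106 counts, and *Kitl*, the ligand of the Kit receptor, with 44, 67 and 100 counts. The scavenger and endocytic receptor list, which holds 6 of the 10 genes, had 6 of 22 called higher at 8 weeks and 5 at 12 weeks, where 4.15% and 3.11% of all genes were, with 0 called lower. Apart from *Lyve1* these included *Cd36* and the macrophage genes *Cd163* (2.06 and 1.69), *Marco* (1.97 and 1.65) and *Clec4f* (1.76 and 1.43).

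Markers of other liver cells were measured beside these values. Of 18 genes of Kupffer cells and macrophages, 17 were called higher at 8 weeks and 16 at 12 weeks, where 4.15% and 3.11% of all genes were. Their medians were 1.81 and 1.47, and their summed levels 129 CPM in the control, 513 CPM at 8 weeks and 402 CPM at 12 weeks. None of the 18 was at 0 in any library. *Cd5l* had 14.9, 83.5 and 52.0 CPM, and *Timd4*, also specific to resident macrophages, 1.70, 10.6 and 7.25 CPM. The part of these cells in the values of *Mrc1*, *Lyve1*, *Fcgr2b* and *Stab1* was not tested. At 8 weeks *Lyve1* stood at 2.28-fold the control, *Mrc1* at 1.68-fold, *Fcgr2b* at 1.31-fold and *Stab1* at 1.06-fold. At 12 weeks *Lyve1* stood at 2.45-fold, *Mrc1* at 1.17-fold, *Stab1* at 1.03-fold and *Fcgr2b* at 0.952-fold. Stellate cell and fibroblast genes had medians of 0.34 and 0.39 (1 of 15 called higher at 8 weeks, *Col3a1*, at 1.01). Hepatocyte genes had medians of 0.26 and 0.44 (0 of 14 called). Over all genes, 6.25% were called in either direction at 8 weeks and 4.46% at 12 weeks. B cell genes, a source of *Fcgr2b*, summed to 72 control counts, 60 after 8 weeks and 37 after 12 weeks, and 2 of the 8 passed the filter. Of the 2, *Pax5* had 31, 12 and 12 counts, with log2 ratios of -0.84 (-2.54 to -0.45) and -0.79 (-2.43 to -0.33). *Cd79a* had 12, 15 and 5 counts, with intervals that span 0 at both times. *Ms4a1*, named for this after its values were seen, did not pass and had 1, 4 and 0 counts, too few in itself to tell the libraries apart. The part of the muscle transcripts of the 8-week library in its endothelial values was not tested. Of the 10 genes, the 5 with intervals below 0 between 8 and 12 weeks were highest in that library. The other 5 had intervals that span 0, and of these *Stab1* and *Clec4g* also had their highest value there.

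**Figure D4:**
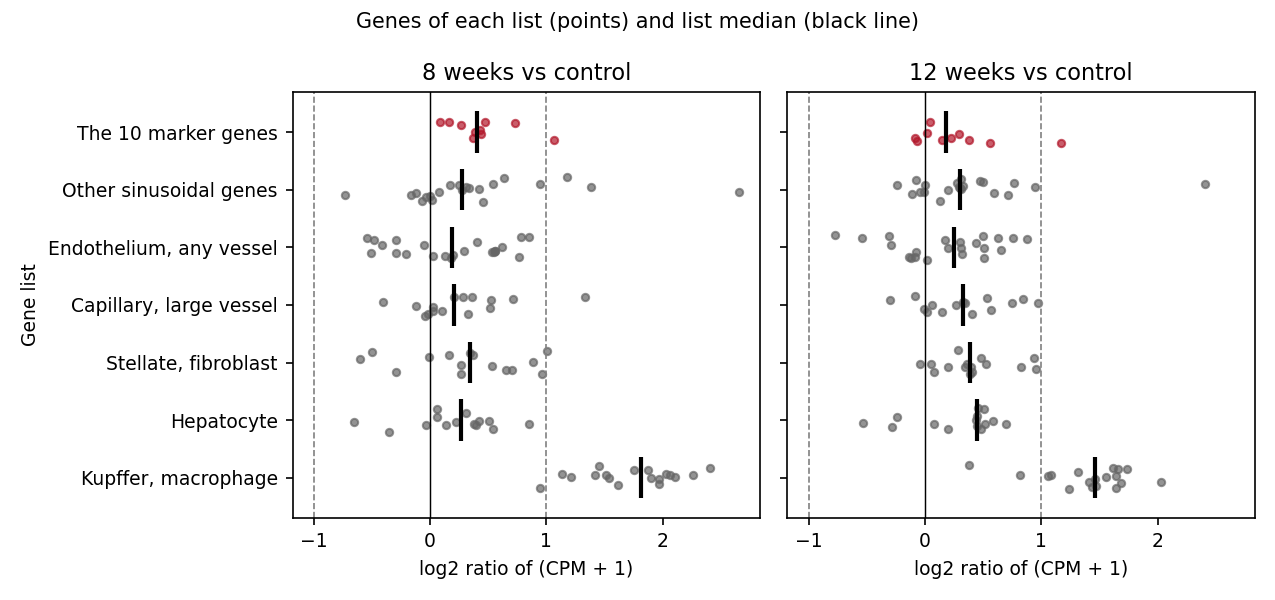
Log2 ratio of CPM + 1 to the control (horizontal axis) at 8 weeks (left) and 12 weeks (right) for the kept genes of each list, with 1 point per gene, a black line at the list median and dashed lines at 2-fold. The 10 marker genes (red) have medians of 0.41 and 0.18 and the Kupffer and macrophage genes 1.81 and 1.47.

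Genes outside these lists that lay nearest to the median pattern of the 10 (0.41 at 8 weeks and 0.18 at 12 weeks) were *Tm4sf4*, *Psme2*, *D17Wsu92e*, *Cog6* and *Aadac*, by Euclidean distance over the 2 log2 ratios of the 3 libraries. *Tm4sf4* was at a distance of 0.0076, and 163 of 8049 genes with a mean of at least 10 CPM lay within 0.1, so many genes shared this pattern.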

How the data were processed

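The authors deposited estimated counts for each gene without normalization, as the values show. TopHat2 2.1.0 and Cufflinks 2.2.1.0 are named in the submitters' processing notes, which list both mm9 and mm10. The program that counted reads, and whether it used strand, are not given in the sources used here. Of 49492 entries, 95.4% of symbols were found in GENCODE M21 (GRCm38), 90.9% of these with the same start and end (9 of the 10 marker genes), so coordinates are those of mm10.

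Estimated counts were rounded and scaled by TMM with edgeR 4.0.16 in R 4.3.3 (factors 0.997 for control, 1.005 for 8 weeks, 0.999 for 12 weeks). Genes at 1 CPM or more in at least 1 library were kept. Log2 ratios of CPM + 1 were called at 2-fold. Intervals are Clopper-Pearson and cover counting error only, since PCR copies cannot be told from independent molecules. At this depth 3 counts equal 0.210 to 0.226 CPM. TPM were computed here from rounded counts and the deposited exon length in bases. Alternatives were DESeq2 1.42.0 size factors, total counts, upper-quartile factors, other added CPM, filters, thresholds and unrounded counts.

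The members and the 16 lists were chosen with earlier results of these data known. Named genes were all 10 members, and genes drawn from up to 4 called genes of a list or else the 2 with most counts over the 3 libraries. Not every gene that this rule gives is reported. The lists of T and NK cells, bile duct cells and red cells are not reported. Other genes of the lists are said to be chosen after their values were seen.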

Additional observations from a re-analysis of the deposited data

Results flagged for a closer look

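*Kdr* and *Fcgr2b* lay above the control at 8 weeks and below it at 12 weeks, opposite directions at the 2 times. *Kdr* had a log2 ratio of 0.1665 at 8 weeks and -0.0855 at 12 weeks. *Fcgr2b* had 0.3890 and -0.0696. Each time is 1 library, both use the same control and the difference was not tested; the 12-week intervals of both genes span 0.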

How the results depend on the processing

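No paired analysis was possible because each group holds 1 library. Across 250 values of single genes under 9 other settings, 0 changed sign and all 250 stayed within the half-width of their counting interval. Settings that altered only the filter kept the scaling and the added CPM. Values of single genes could not change under them, so their agreement carries no information. The median of the 10 ranged from 0.35 to 0.43 at 8 weeks, 0.17 to 0.19 at 12 weeks and -0.21 to -0.18 between the treated libraries. With 5 CPM added, 0 of the 10 genes were called at 8 weeks and 0 at 12 weeks, against 1 and 1 with 1 CPM added. Of all 14585 kept genes, 429 were called at 8 weeks and 259 at 12 weeks with 5 CPM added. At a 1.5-fold threshold 2 were called at 8 weeks, *Lyve1* and *Mrc1*, where 2709 of all 14585 kept genes were. At 12 weeks 1 was called at that threshold, where 2261 of all kept genes were. Over all genes, 912, 650 and 366 were called in the 3 comparisons (8 weeks against control, 12 weeks against control, 12 against 8 weeks). With 0.1 CPM added there were 1656, 1358 and 848, with 5 CPM 429, 259 and 161, and at 1.5-fold 2709, 2261 and 1479. Scaling and filtering without the 8-week library, chosen after the data were seen, gave a 12-week median of 0.18. There 1 of the 10 was called, and 650 of all genes. With 1 library per group the spread between mice is unknown, and depth limits *Lyve1*, *Oit3* and *Pecam1* most.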
